A study of Homo sapiens with 3 samples.

Results

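Some stretches of the genome carried ZNF148 peaks close behind one another, and these dense stretches are described here with the p63 peaks found inside them. A ZNF148 peak was chained to the next when the gap from its end to the next start was at most 12500 bp, and chains of 5 or more peaks were kept. This gave 958 stretches with 7535 member peaks, out of 37883 ZNF148 peaks on chromosomes 1 to 22 and X (19.9%). The members were thus chosen by ZNF148 peak positions, and their ZNF148 values are a description of what was chosen. The p63 list took no part in the choice. It held 21520 peaks, of which 1013 (4.71%) touched a stretch.

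The peaks come from chromatin immunoprecipitation with sequencing (ChIP-seq) of untreated FaDu cells, an established line from a pharyngeal squamous cell carcinoma. There is 1 library for an antibody against ΔNp63α, 1 for an antibody against ZNF148 and 1 of input DNA. The DNA came from 3 independent ChIP assays, per the labels' protocols, but each antibody has 1 peak list. Replicate error could therefore not be measured, and no test was made. FaDu is a single tumour line, and its gains and losses of DNA were not taken into account. Read depth is unknown from the lists. Intervals are 95% intervals, Wilson for shares and exact Poisson for densities. They reflect counting error alone and take peaks as independent of each other, which neighbours in 1 stretch are not.

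ZNF148, also known as ZBP-89, is a zinc finger transcription factor that binds GC-rich DNA, such as that of many promoters. ΔNp63α is a p63 isoform that lacks the N-terminal activation domain, and it maintains the basal, proliferating layer of squamous epithelia. It binds a response element built of a pair of half-sites, much like that of p53, and many of its sites lie in enhancers away from promoters. Long runs of neighbouring peaks are found for many factors where gene-rich, open chromatin holds several promoters and enhancers side by side. They are also found at tandem repeats, where 1 sequence unit follows itself many times.

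Most stretches were short. Of the 958, 307 had the minimum of 5 peaks (32.0%), 182 had 6 and 139 had 7. The median was 6 peaks (quartiles 5 and 8.75). Stretches of 10 or more numbered 200 and held 2855 members (37.9%), and 22 stretches of 20 or more held 570. The median span was 22.7 kb (quartiles 14.7 and 32.6 kb), with a range from 2.17 to 148 kb. Together the stretches covered 24.9 Mb, or 0.844% of the 2949 Mb between the outermost peaks of the chromosomes. Members stood at 303 per Mb in them, against 12.8 ZNF148 peaks per Mb between the outermost peaks, and took up 9.04% of the span. Gaps between neighbours had a median of 2.13 kb (quartiles 0.61 and 5.50 kb). Of the 6577 gaps, 33.6% were at most 1 kb and 7.19% were 10 kb or more.

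**Figure D1:**
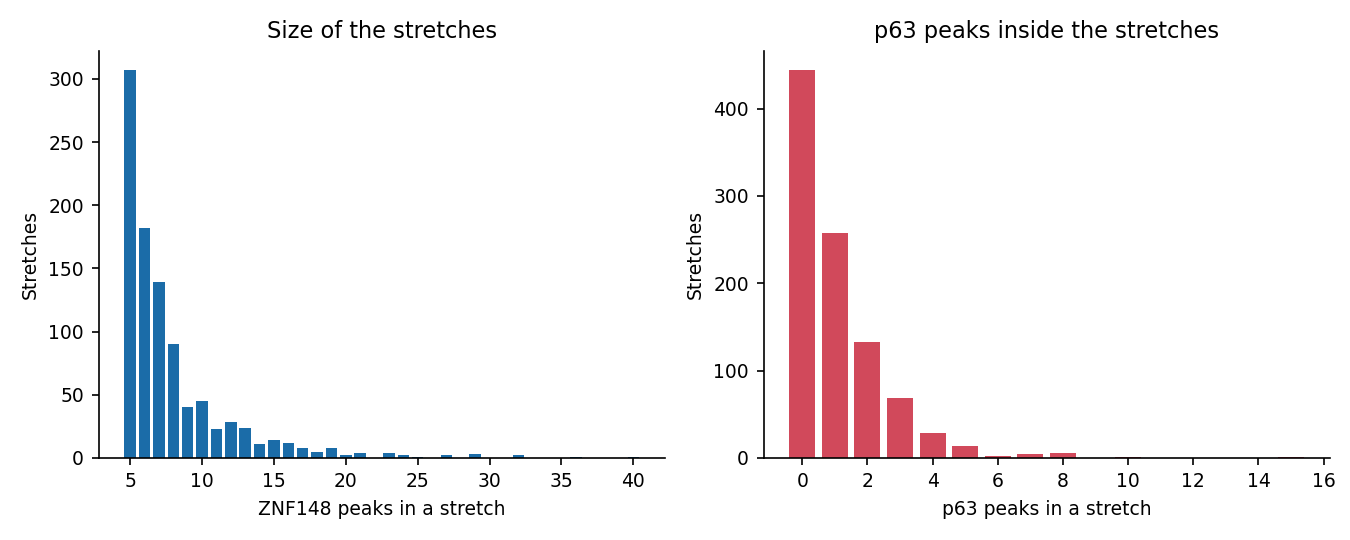
Number of stretches (vertical axes) by the ZNF148 peaks they hold (left) and by the p63 peaks inside them (right). The left panel falls from 307 stretches of 5 peaks to 1 of 40, and in the right panel 444 stretches have no p63 peak and 1 has 15.

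On either side of the limit of 5, median folds were nearly equal. The share overlapping p63 was lower just inside, but the 2 intervals had values in common. The 570 chains of 4 peaks, just outside, had a median ZNF148 fold enrichment of 10.01, and the 307 chains of 5, just inside, of 10.005. Fold enrichment is the authors' value for a peak, as their peak caller wrote it. Of the peaks in chains of 4, 5.18% overlapped a p63 peak (interval 4.34 to 6.16%), and in chains of 5, 3.71% (2.88 to 4.78%). The largest gap was over 12 kb in 67 stretches, and 48 gaps beside a stretch just missed the limit, at up to 13 kb.

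Member peaks were slightly longer than other ZNF148 peaks and of much the same strength. Their median fold was 10.1 (quartiles 7.21 and 16.9), against 9.55 (7.21 and 16.6) for the 30348 peaks outside. Of the members, 3932 had a fold of 10 or more (52.2%), where the share over all ZNF148 peaks was 49.6%. Their median length was 265 bp against 244 bp. Intervals with several summits made up 6.21% of members (468 peaks) and 2.92% of the others, with 3.57% over the whole list. Since the rule worked on this same list, these are descriptions without a test.

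Folds varied widely within a stretch. The strongest member of a stretch had a median fold of 28.3 (quartiles 19.4 and 40.3), and the weakest a median of 5.77. The strongest member was a median of 2.57 times the stretch's own median fold (quartiles 1.89 and 3.75). In 441 stretches (46.0%) at least 1 member belonged to the most significant 10% of all ZNF148 peaks, and in 58 stretches at least 3 did. Counted by peaks, 691 members (9.17%) belonged to that 10%, so members were not richer in such peaks than the whole list. In 21 stretches no member reached a fold of 10, and in 24 every member did. The outermost members had a median fold of 9.38 and the inner ones of 10.5.

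Some of the most significant ZNF148 peaks of the whole list were members. The most significant peak of all, on chromosome 11 at 65625017 to 65625728 with a fold of 100.2, lay in a stretch of 18. The next, on chromosome 14 at 77474140 to 77474830 (fold 103.8) and 77494572 to 77495960 (fold 110.0), lay in 1 stretch of 19, and both overlapped p63 peaks. A peak on chromosome 9 at 140210044 to 140210984 (fold 112.3), in a stretch of 15, had the largest fold among the members. The peak on chromosome 7 at 27170246 to 27170864 (fold 103.1) lay in a stretch of 23 from 27135797 to 27213160, the part of the chromosome known for the HOXA cluster of body-patterning genes. That stretch held 4 p63 peaks, and none of them overlapped a member. Here and below, such remarks on what lies in a region are general knowledge and were not checked against an annotation, so no peak is assigned to a gene.

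Dense stretches were unequally spread over the chromosomes. On chromosome 17, 42.8% of the ZNF148 peaks were members (interval 40.8 to 44.7%), in 118 stretches. Chromosomes 22, 19, 11 and 16 followed with 38.4%, 34.3%, 31.8% and 30.6%. Chromosomes 18, 13 and 4 had 1.24%, 3.32% and 3.47%, in 1, 4 and 5 stretches. The share of members rose with the density of ZNF148 peaks over the 23 chromosomes (Spearman's rho 0.96, Pearson's r 0.92). The rule itself depends on that density, so this is a description. Stretches were also frequent near the outermost peaks of the chromosomes, which need not lie at the chromosome ends. Of the 958, 263 (27.5%) lay within 5 Mb of the outermost peak of a chromosome, where 12.01% of the other ZNF148 peaks and 10.6% of all p63 peaks lay. The first share counts stretches and the others count single peaks, so they are unlike measures. The share of member peaks was not computed.

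The most members, 40, were found in a stretch of 131 kb on chromosome 9 (139393873 to 139524538), together with 7 p63 peaks. This end of the long arm is known to hold NOTCH1, which encodes a receptor that drives squamous differentiation. Strong ZNF148 peaks without p63 overlap lay at 139422515 to 139423331 (fold 75.5), at 139429439 to 139429771 (40.6) and at 139445834 to 139446203 (54.4), and no p63 peak was called before the summit at 139468559, which is 74686 bp into the stretch. The folds of the p63 peaks ran from 6.05 to 72.9. The strongest of them, at 139518302 to 139518886 (fold 72.9), lay over the strongest ZNF148 member, at 139518171 to 139518805 (fold 76.4), with summits 42 bp apart. The 5 members that overlapped p63 included none with summits within 25 bp.

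The longest stretch, 148 kb on chromosome 22 (46883281 to 47031753), held 36 members and 15 p63 peaks, more p63 peaks than any other. Their median fold was 7.80, with a range of 3.51 to 35.2. Only 4 members overlapped p63. The strongest p63 peak, at 47023258 to 47023637, lay over the most significant ZNF148 member, at 47023226 to 47023667 (fold 61.2), with summits 32 bp apart. Another on the same chromosome (46443401 to 46533434) had 29 members and 7 p63 peaks. Its most significant ZNF148 member, at 46503118 to 46503889 (fold 64.7), was overlapped by a p63 peak of fold 20.5, with summits 20 bp apart.

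Next by size, a stretch on chromosome 9 (137238065 to 137361654) had 32 members with folds of at most 35.3, and 8 p63 peaks with folds of 4.37 to 79.1. It was also the stretch with the most overlapping members, 6, together with a stretch on chromosome 17 described next. The p63 peak of fold 79.1, at 137324299 to 137324648, had no ZNF148 summit within 2415 bp. Its 6 overlapping pairs had summits 63 to 192 bp apart. The stretch on chromosome 17 (38627349 to 38704004) had 21 members and 10 p63 peaks. There, too, the most significant p63 peak, at 38694210 to 38694595 (fold 78.1), was 4086 bp from the nearest ZNF148 summit, while the most significant ZNF148 member, at 38646478 to 38647053 (fold 50.6), was overlapped by a p63 peak of fold 22.2 with summits 22 bp apart.

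In a stretch on chromosome 3 (50161602 to 50208336) each of the 5 p63 peaks, of folds 15.9 to 63.6, overlapped a ZNF148 member, and 5 of its 17 members were overlapped. At 50204780 to 50205115 (p63 fold 53.8) the summits were 3 bp apart. On chromosome 12 (133077907 to 133158860), 21 members stood beside 8 p63 peaks, and 2 members overlapped one.

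Other large stretches held fewer p63 peaks than those just described. Over all 958 stretches, 444 held none and 258 held 1. A stretch on chromosome 17 (79949906 to 80074505) combined 32 members with 4 p63 peaks. Stretches of 29 members on chromosome 19 (1205214 to 1290906) and chromosome 11 (67139907 to 67237045), and of 25 members on chromosome 16 (3001178 to 3088708), held 2 each. No p63 peak was called on chromosome 17 in the stretch of 27 members from 79353957 to 79435281, whose folds reached 58.7. None was called either on chromosome 17 from 46653798 to 46709938, where 18 ZNF148 peaks had folds of 5.002 to 47.3. That part of chromosome 17 is known for the HOXB cluster.

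**Figure D2:**
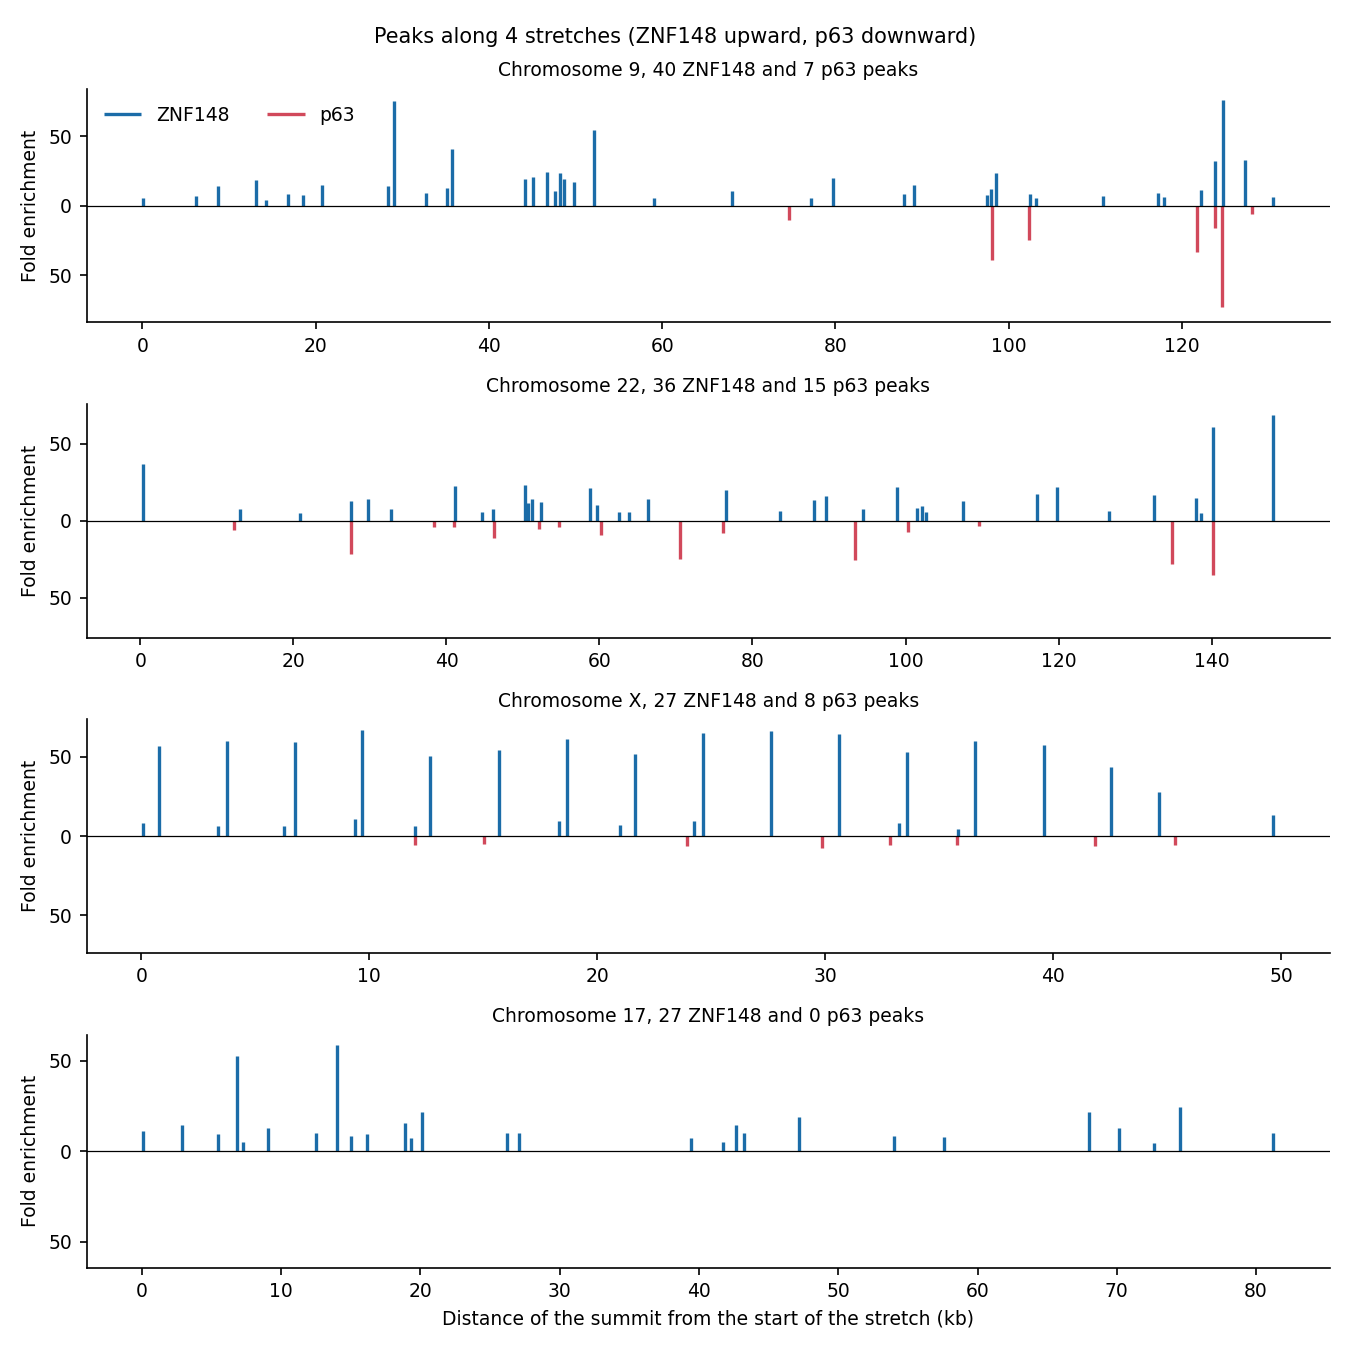
Fold enrichment of each peak (vertical axes, ZNF148 upward and p63 downward) against the distance of its summit from the start of the stretch in kb, for 4 stretches. On chromosome 9 the 7 p63 peaks begin 74686 bp into the stretch, on chromosome X the strong ZNF148 peaks stand at even steps, and on chromosome 17 no p63 peak was called.

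On chromosome X, the stretch from 114959795 to 115009549 had regularly spaced strong peaks. It held 27 ZNF148 peaks in 49.8 kb, and 15 of them were strong, with folds of 43.7 to 67.1 (median 59.6). Neighbouring strong summits were 2967 to 3019 bp apart, 2986 ± 12.2 bp on average (SD of the 14 spacings). The other 12 members had folds of 4.33 to 27.9, and 10 of them lay within 800 bp before the next strong summit. The 8 p63 peaks were weak, with folds of 4.86 to 7.28, and none lay over a strong ZNF148 peak. Of these p63 peaks 7 had a strong ZNF148 summit after them, at 625 to 754 bp (median 717 bp), so they lay at nearly the same offset from it. The long arm of chromosome X is known to carry DXZ4, a macrosatellite of tandem units of similar length. Whether this stretch is that repeat was not determined, and the sources used here do not say how reads matching several copies were handled.

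Even spacing was rare. It was looked for, after the pattern on chromosome X had been seen, in the 147 stretches with at least 5 members of no less than 50% of the stretch's highest fold. In 5 of them more than 50% of the spacings between these members were within 5% of their median. On chromosome 1 from 161410610 to 161440529, 5 ZNF148 peaks of folds 21.6 to 33.8 stood 7375 to 7424 bp apart, and 3 weak p63 peaks of folds 4.72, 6.07 and 6.62 lay between them. Clusters of transfer RNA genes in tandem units are known on this chromosome arm. On chromosome 10 from 135467041 to 135495477, at the end of the long arm, 7 weak peaks of folds 5.77 to 9.38 had a median spacing of 3318.5 bp (5 of 6 within 5% of it), with no p63 peak. D4Z4 repeats are known at that end. On chromosome 1 from 228749975 to 228779321, 11 peaks of folds up to 10.8 had a median spacing of 2256 bp among 9 of them, again with no p63 peak. The array of 5S ribosomal RNA genes is known on that arm. The last lay on chromosome 20 from 49242093 to 49262263, with 6 ZNF148 peaks and 1 p63 peak.

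The 3 densest stretches of 10 or more members were made of weak peaks. They lay on chromosome 19 from 27731928 to 27739624 (10 peaks, 1.30 per kb), chromosome 10 from 42380128 to 42400701 (20 peaks, 0.972 per kb) and chromosome 16 from 46390813 to 46407060 (12 peaks, 0.739 per kb). The median over all stretches was 0.313 per kb, and the highest, 2.31 per kb, was in a stretch of 5 peaks on chromosome 12 (57504219 to 57506386). The folds in the 3 stretches on chromosomes 19, 10 and 16 were 1.65 to 3.33. With a stretch of 7 on chromosome 11 from 51579364 to 51591304, they were the only 4 stretches in which every fold was under 5. They held 49 members and no p63 peak. These positions are known to lie toward centromeres, where satellite repeats are found. Over all members, 2.59% had a fold under 5, and outside the stretches 1.598%.

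The p63 peaks were much denser inside the stretches than around them. By summits, p63 stood at 40.3 per Mb inside (interval 37.8 to 42.8), at 17.3 in the 25 kb on either side (16.1 to 18.6), at 14.1 from 25 to 100 kb away and at 11.1 from 100 to 500 kb. Farther than 500 kb away it was 6.08 per Mb (5.98 to 6.17). The mean p63 density over all was 7.30, so the inside was 5.52 times it. On 22 of the 23 chromosomes the density inside was above that of the whole chromosome. The exception was chromosome 18, whose 1 stretch held no p63 peak. Counted by peaks that touched the chain, shorter chains were similar. Pairs of ZNF148 peaks held 45.9 p63 peaks per Mb (42.7 to 49.3), chains of 3 or 4 held 37.3 (34.5 to 40.3), and stretches of 5 or more 40.7 (38.2 to 43.3). In stretches of 20 or more it was 57.3 (46.9 to 69.4). Chains start and end on a ZNF148 peak, so densities of short and long chains are not measured over like sequence.

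The number of p63 peaks per ZNF148 peak follows from the rule, which sought many ZNF148 peaks, and is given as a description. There were 1.34 p63 peaks for every 10 ZNF148 peaks inside the stretches and 6.76 for every 10 outside. In no stretch did p63 peaks equal or outnumber ZNF148 peaks. At least 1 p63 peak was found in 514 stretches, or 53.7% (50.5 to 56.8%), and 444 had none. A single p63 peak was found in 258, a pair in 133 and 3 or more in 123, which together held 489 of the 1013. The share with a p63 peak rose with size, from 38.8% of stretches of 5 (33.5 to 44.3%), whose median span was 15.2 kb, to 90.9% of those of 20 or more (72.2 to 97.5%), whose median span was 81.1 kb. The p63 density in these size classes was 33.1 and 57.3 per Mb.

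Member peaks coincided with p63 less often than other ZNF148 peaks did. Of the 7535 members, 436 overlapped a p63 peak by at least 1 bp, or 5.79% (5.28 to 6.34%). Over all ZNF148 peaks the share was 12.1%, and outside the stretches 13.6% (13.2 to 14.0%). By chain size, it was 19.3% for peaks without a neighbour in reach (18.7 to 19.9%), 7.37% in pairs (6.79 to 7.996%) and 5.53% in chains of 3 or 4. It was 5.28% in stretches of 5 to 9, 6.17% in those of 10 to 19 and 8.42% in those of 20 or more (6.41 to 10.99%). The step thus lay between peaks alone and peaks in pairs, and the interval of members overlapped that of chains of 3 or 4 (4.99 to 6.13%). The low share is therefore not particular to stretches of 5 or more.

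The difference was largest among strong ZNF148 peaks. ZNF148 peaks were divided by q value into 10 rank classes of equal size. In class 1, 90 of 691 members overlapped p63, or 13.02% (10.7 to 15.7%), against 53.4% of the 3098 others (51.6 to 55.1%) and 71.1% of the 1970 peaks alone (69.1 to 73.1%). In class 2 the shares were 10.8% for members and 27.3% for others, and in class 3 7.72% and 18.2%. In class 6 they were 4.66% (3.32 to 6.51%) and 5.87% (5.09 to 6.75%), and from class 6 to class 10 the intervals of members and others overlapped. With the members' mix of classes, the others would have had 13.9%, so the members' share was 0.418 times theirs (0.381 to 0.457, from the interval of the members' share alone). With chromosome held fixed as well it was 0.519 times (0.474 to 0.568). No value measures how this would vary between repeated libraries.

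**Figure D3:**
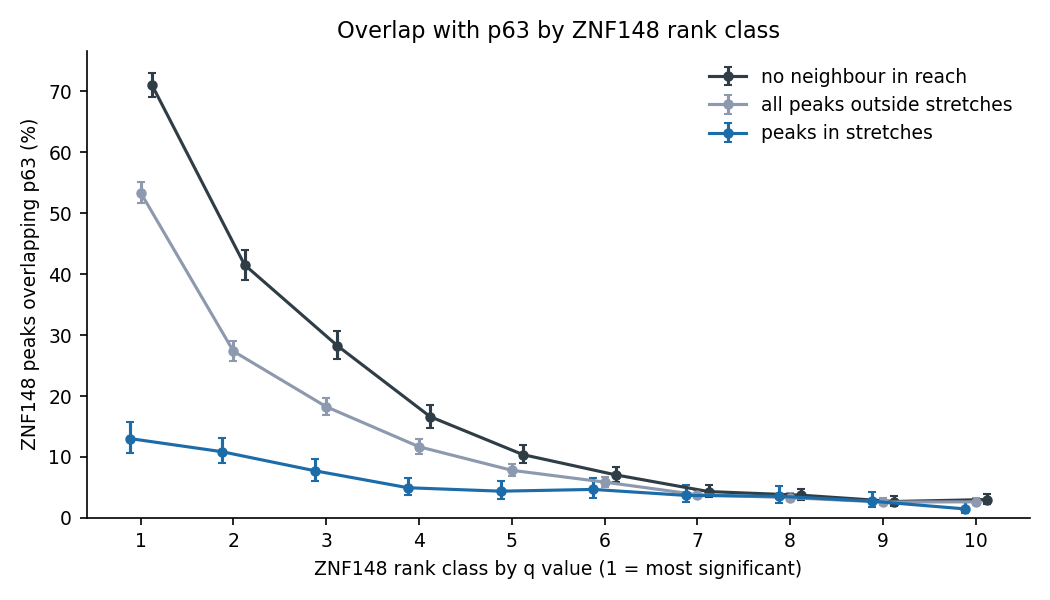
Share of ZNF148 peaks that overlap a p63 peak in percent (vertical axis) by ZNF148 rank class (horizontal axis), for peaks in stretches, all peaks outside them and peaks without a neighbour in reach, with 95% Wilson intervals. In class 1 the 3 groups stand at 13.02%, 53.4% and 71.1%, and from class 6 on members and others lie close together.

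The lower share was found on most chromosomes. On the 18 chromosomes with at least 100 members, 3.64 to 10.8% of members overlapped p63, against 4.73 to 16.9% of the other peaks. Members had the lower share on 17 of these 18, and on 21 of all 23. The exceptions were chromosome 19, with 5.20% and 4.73%, and chromosome 21, with 3 of 22 members. On chromosomes 17 and 22, rich in stretches, the shares were 5.44% and 5.68%, and 5.39% and 6.33%, with intervals that overlapped. Among the 18 chromosomes with at least 100 members, members overlapped p63 most often on chromosome 14. The share there was 10.8% (8.07 to 14.2%), beside 11.4% of its other peaks. On chromosome X, 4 of 67 members overlapped p63 (5.97%, 2.35 to 14.4%), against 28.3% of the other peaks (25.5 to 31.2%), and 3 of the 4 were in the evenly spaced stretch.

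**Figure D4:**
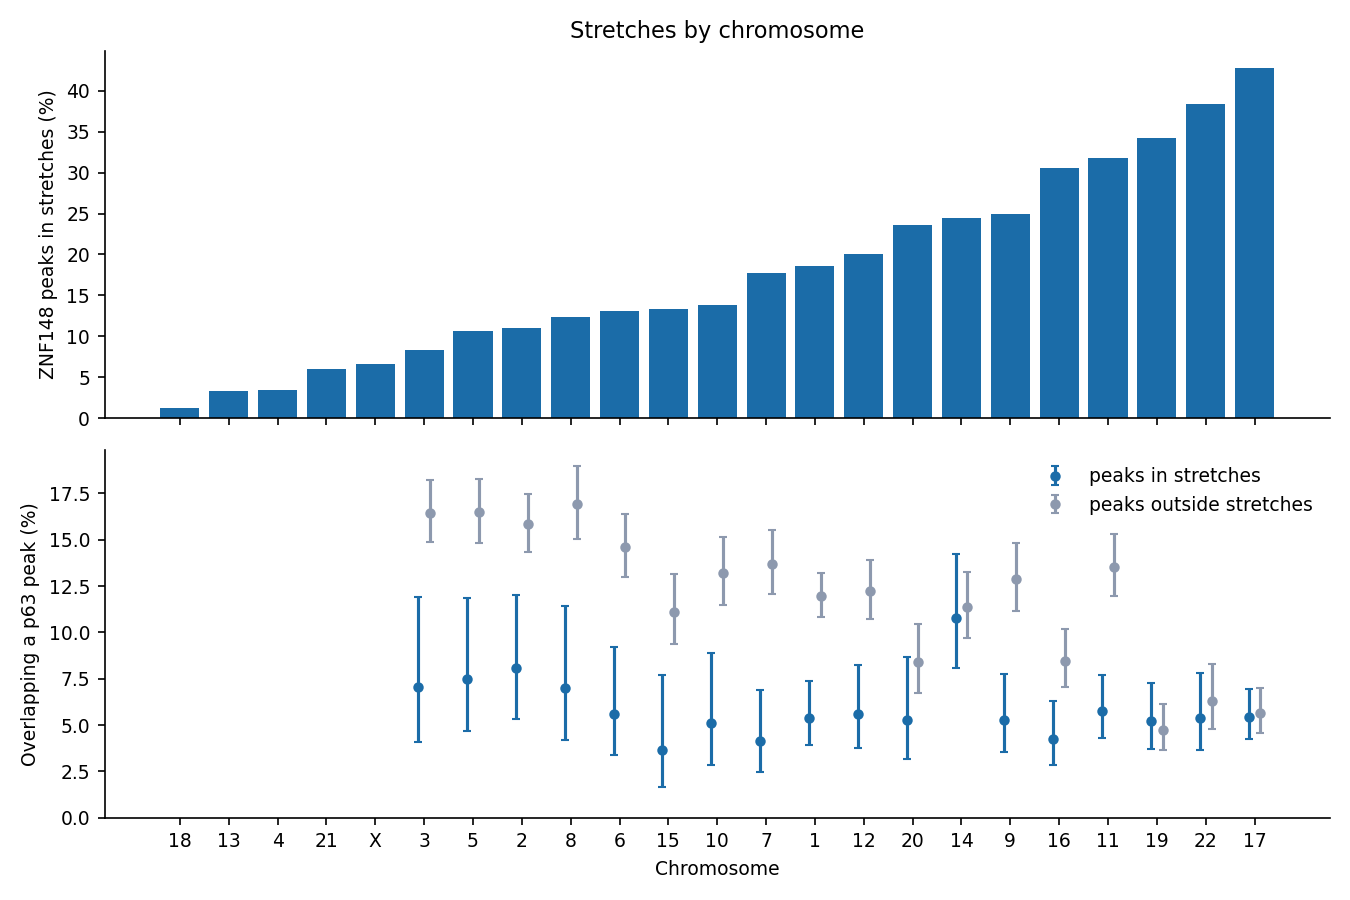
Share of each chromosome's ZNF148 peaks that lie in stretches, in percent (top), and share of ZNF148 peaks overlapping a p63 peak in percent with 95% Wilson intervals (bottom), by chromosome, ordered by the top panel. The bottom panel has the 18 chromosomes with at least 100 members, whose shares run from 3.64 to 10.8% in stretches and from 4.73 to 16.9% outside.

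Within a stretch, overlap with p63 was more frequent at the most significant ZNF148 peak. It was found at 103 of the 958 strongest members, or 10.8% (8.94 to 12.9%), and at 333 of the other 6577, or 5.06% (4.56 to 5.62%). Rank class was not held fixed here. Over all members, the share overlapping p63 was 13.02% in rank class 1 and 1.47% in class 10. Position within the stretch made no visible difference, with 5.90% at the outermost members (4.93 to 7.04%) and 5.75% at the inner ones (5.17 to 6.39%). Overlapping members were found in 288 stretches (30.1%). Of these, 190 had 1, 64 had 2 and 34 had 3 or more. Another 226 stretches held p63 peaks and no overlap.

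The p63 peaks inside the stretches were next counted by their position relative to ZNF148. The rule chose places dense in ZNF148 peaks, so a p63 peak inside lies near or on one more often by that choice, and the shares of overlap inside and outside are given as a description. Of the 1013, 435 overlapped a ZNF148 member, or 42.9% (39.9 to 46.0%). Over all p63 peaks the share was 21.2%, and outside 20.1% (19.6 to 20.7%). The other 578 lay between members, with the nearest ZNF148 summit at a median of 1222 bp. For the most significant 10% of p63 peaks, overlap was alike inside and outside, at 57.6% of 139 (49.2 to 65.5%) and 56.9% of 2013 (54.7 to 59.0%). For the least significant 10% it was 43.4% inside (34.4 to 52.9%) and 6.55% outside (5.56 to 7.70%).

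Summits of overlapping pairs were farther apart inside the stretches, where the rule also set the density of ZNF148 summits. Summits within 25 bp were called close. Of the 435 overlapping p63 peaks inside, 75 had a close ZNF148 summit, or 17.2% (14.0 to 21.1%). Over all overlapping p63 peaks the share was 63.7%, and outside 68.6% (67.2 to 70.0%). The median distance was 80 bp inside and 14 bp outside. In p63 rank class 1, the share of close summits was 16 of 80 inside (12.7 to 30.0%) and 84.5% of 1145 outside (82.3 to 86.5%). In class 10 it was 17.4% (9.09 to 30.7%) and 29.9% (22.8 to 38.1%), where the intervals overlapped. By the distance of all p63 summits to the nearest ZNF148 summit, 7.40% of those inside were close, 7.60% lay 26 to 50 bp away and 10.7% lay 51 to 100 bp away. Outside, 13.8% were close, and the farther steps held 2.31% and 1.82%.

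**Figure D5:**
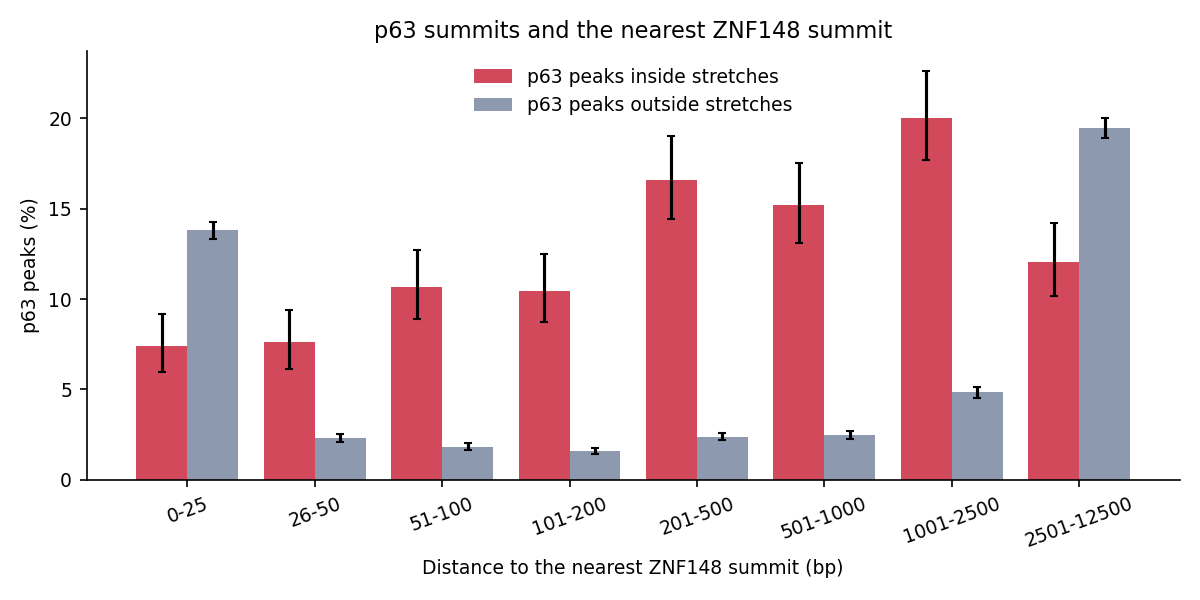
Share of p63 peaks in percent (vertical axis) by the distance from their summit to the nearest ZNF148 summit in bp (horizontal axis, bins of unequal width), inside and outside the stretches, with 95% Wilson intervals. Outside, the bin at 0 to 25 bp holds 13.8% and the next 2.31%, while inside the same bins hold 7.40% and 7.60%.

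Chains of 3 or 4 peaks lay between pairs and stretches in this respect, as 25.5% of their peaks that overlapped p63 had close summits (21.2 to 30.4%). In pairs it was 268 of 536, and at peaks alone 76.0% (74.5 to 77.5%). Counted the same way, by overlapping ZNF148 peaks, it was 17.2% for members (13.9 to 21.0%).

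The fold enrichments of ZNF148 and p63 at shared sites ranked differently inside and outside the stretches. Over the 438 overlapping pairs inside, Spearman's rho between the p63 and the ZNF148 fold was 0.06, and over the 4140 outside 0.65. With close summits only, rho was 0.19 over 75 pairs inside and 0.76 over 2831 outside. With summits farther apart it was 0.03 over 363 and 0.21 over 1309. These are descriptions across sites that share the same libraries. The median p63 fold in overlapping pairs was 16.3 inside (quartiles 8.84 and 30.5) and 27.4 outside (14.9 and 43.0), and the median ZNF148 fold 16.2 and 25.02.

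Taken over all p63 peaks, strength was nearly the same on either side. The median p63 fold was 13.7 inside (quartiles 8.07 and 24.9) and 13.2 outside (8.40 and 24.4), and 64.8% and 65.1% had a fold of 10 or more, with 65.1% over the whole list. Among p63 peaks that overlapped ZNF148, those inside had the lower median fold. As given above for overlapping pairs, this was found at close summits and hardly at summits farther apart. Inside, the median was 16.2 where p63 overlapped a member and 12.4 between members. Outside, it was 27.4 with overlap and 11.7 without.

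A few members were strong in both lists with close summits. The strongest such site was on chromosome 9 at 139001459 to 139001978, with a ZNF148 fold of 102.5, a p63 fold of 86.3 and summits 17 bp apart, in a stretch of 20 ZNF148 and 7 p63 peaks. On chromosome 11 at 69325315 to 69325656 the folds were 57.4 and 47.0 with summits 18 bp apart, in a stretch of 7. On chromosome 3 at 169397490 to 169397922 they were 46.8 and 41.5 (20 bp), and on chromosome 16 at 70733894 to 70734391 they were 40.6 and 59.0 (21 bp). These sites were picked by the smaller of both folds after the values had been seen.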

How the data were processed

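The deposited peak lists of the p63 and the ZNF148 library were read in narrowPeak column order. The submitters' processing notes name Bowtie2 2.3.4.3, SAMtools 1.7, MACS2 2.2.6 and build hg19, without settings. The sources used here name no control library or read filter. The deposited fold enrichment (a ratio), −log10 p and −log10 q are the authors' values per peak, and the deposited score was not used. Rows with the same start and end were joined as 1 peak with its most significant summit. Positions are 1-based hg19. Overlap means at least 1 bp. Stretches and the 10 rank classes were formed as the report states.

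Read depth per library is unknown, and with 1 list per antibody no p-value was computed. The members, lists and rules were chosen with earlier results of these data known. Named stretches were the 10 with most ZNF148 peaks, the 5 with most p63 peaks, the 5 with most overlapping members, the 3 largest without p63 and the 3 densest of 10 or more. Sequences, motifs and gene lists need an hg19 genome or annotation and were not analysed here. Functions were tested on simulated chains. Alternatives were other gaps, sizes, thresholds and overlap criteria. Python 3.11.15, numpy 2.4.6, pandas 2.3.3, scipy 1.17.1 and matplotlib 3.10.9 were used.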

Additional observations from a re-analysis of the deposited data

Results flagged for a closer look

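Outside chromosomes 1 to 22 and X, which enter no comparison above, the same rule found 3 chains of 5 or more ZNF148 peaks. They held 54 of the 170 ZNF148 peaks there. The rule chose them by ZNF148 positions, so this is a description. An unplaced sequence held 40 of them (folds 2.10 to 21.3, median 3.98) and 29 p63 peaks (median fold 2.21). The other chains had 7 peaks each, with folds of 4.43 to 42.7 and of 1.79 to 1.94, and no p63 peak.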

How the results depend on the processing

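Of 104 values recomputed under alternatives, 53 moved by less than their counting interval (counts by less than 1.5 times), 51 moved further and 0 reversed. The ratio of members' to other peaks' overlap with p63 at fixed rank class stayed below 1 in all 14 alternatives, between 0.272 and 0.519.

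With gaps of at most 5 kb there were 477 stretches with 3167 members (8.36% of ZNF148 peaks). Of these stretches 43.0% held p63, at 66.3 per Mb, 6.69% of members overlapped p63 and the ratio was 0.477. With gaps of at most 25 kb there were 12630 members (33.3%), 66.0% of stretches held p63, and p63 stood at 28.7 per Mb. Requiring 10 or more peaks left 200 stretches with 2855 members (7.54%), of which 77% held p63, at 44.1 per Mb, with 6.62% of members overlapping and a ratio of 0.502. With 3 or more peaks there were 2824 stretches, 13703 members (36.2%), 36.5% of stretches with p63 and a ratio of 0.373. With a fold of at least 10 in both lists, 257 stretches and 1729 members (9.20%) were left, with 36.6 p63 peaks per Mb of median fold 21.6, 7.29% of members overlapping and a ratio of 0.378. With the ZNF148 list shortened to the length of the p63 list, there were 337 stretches and 2369 members (11.01%), 62.3% of stretches held p63, at 54.6 per Mb, and 8.86% of members overlapped.

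A −log10 q of at least 5 in both lists made 18.7% of ZNF148 peaks members. Counting every line of the lists as a peak made 22.4% members, and 50.1% of stretches then held p63. Merging peaks within 500 bp made 15.1% members, with 61.1% of stretches holding p63, 7.22% of members overlapping and a ratio of 0.486. Under an overlap of at least 50% of both peaks, 3.30% of members overlapped, the ratio was 0.272 and 25.7% of overlapping p63 peaks had close summits. Under summits within 100 bp these were 3.45%, 0.281 and 28.8%. Calling summits within 50 bp close raised the last share to 34.9%. Holding chromosome fixed beside the rank classes of the whole list, chosen after seeing the data, gave the ratio of 0.519 stated above. Leaving out the 4 weak stretches or the evenly spaced one on chromosome X, also chosen after seeing the data, moved no value beyond its interval. The cause of these shifts was not tested. No paired analysis was possible because each antibody has 1 list and no replicate numbers. Base composition, motif and gene list results were not run. Read depth is unknown, so what it limits cannot be stated.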
